A study of Caenorhabditis elegans with 2 samples.

Results

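The genes described here encode the proteins of the small subunit of the cytosolic ribosome of the nematode Caenorhabditis elegans, and the data show where the retinoblastoma-family protein LIN-35 sat near them. Members were all protein-coding genes of the Ensembl WBcel235 annotation with a name that starts with rps-, which gave 31 of 19973 on the nuclear chromosomes. LIN-35 was mapped by chromatin immunoprecipitation with sequencing (ChIP-seq) in whole, mixed-sex larvae of the first stage (L1). The strain was YL409, with the genotype unc-119(ed3)III and the transgene vrIs60, in which the lin-35 promoter drives LIN-35 fused to GFP and FLAG and which restores unc-119. There was 1 group, with 2 biological replicates per the labels, and the analysis holds no untagged, mutant or later-stage sample to set them against. Tissues of the whole larva are mixed in each sample, so the tissue in which a site was occupied cannot be told apart. The values are positions and signal values of peaks as deposited, and sequencing depth is unknown.

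The small ribosomal subunit reads the messenger RNA. Its proteins and its ribosomal RNA form a head and a body, between which the mRNA runs, and the genes of its proteins are among the most highly transcribed of growing cells. LIN-35 is the pocket protein of the worm DREAM complex, which pairs E2F and DP proteins with DNA-binding partners and represses cell cycle genes. Many worm mRNAs lose the first stretch of their transcript, the outron, by trans-splicing to a spliced leader. The start of such a gene in an annotation can therefore be a splice acceptor rather than the site where transcription begins.

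LIN-35 peaks lay upstream of nearly all small subunit genes. Of the 31 members, 28 (90.3%) had, within 500 bp of the 5′ end of the gene record, the summit (highest point) of a peak in the authors' IDR list, where 13.6% of all protein-coding genes did. IDR, the irreproducible discovery rate, is a measure of how well the ranks of peaks repeat between replicates. The list equals the 3838 strongest pooled peaks, and some of its peaks rank far apart in the replicates. All 28 summits were upstream of their start, at 115 to 490 bp with a median of 281.5 bp, and no 2 members had the same peak. At 16 of the 28, however, the start of another protein-coding gene also lay within 500 bp of the summit, and at 11 of these it was the nearer one. Peak strength at members varied 13.7-fold, with signals of 94.2 to 1295 and a median of 374, against a median of 181 over all 2722 genes with an IDR peak. Among the 1919 strongest of the 3838 IDR peaks, 27 members had a peak within 500 bp, against 8.86% of all genes. The members without an IDR peak in the window were rps-16, rps-27 and rps-29.

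**Figure D1:**
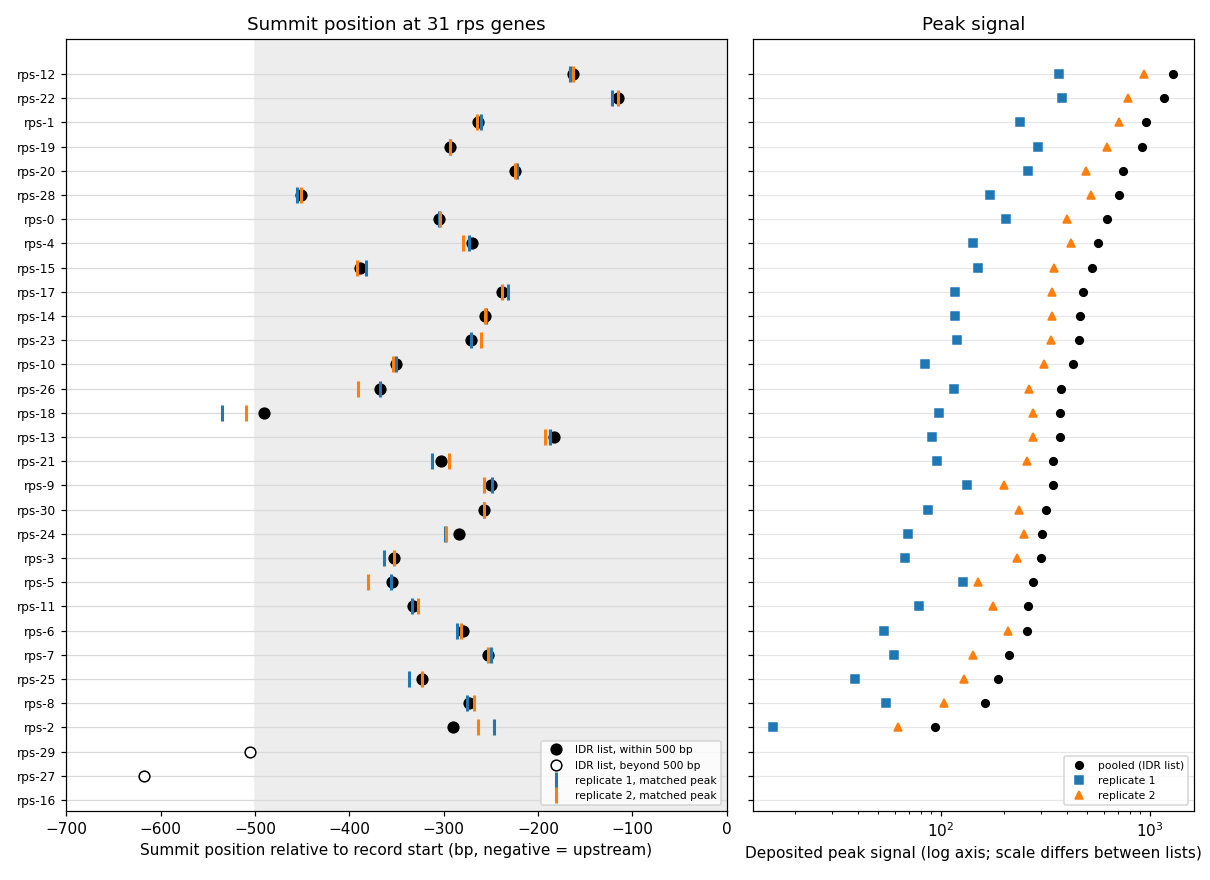
Left, position of the peak summit relative to the start of the gene record (bp, negative is upstream) for the 31 rps genes, ordered by signal, with the IDR list as circles (open beyond 500 bp) and the matched peaks of replicates 1 and 2 as ticks. Right, the deposited signal of the same peaks on a log axis. All 28 filled circles lie between 115 and 490 bp upstream, the open circles of rps-29 and rps-27 lie at 505 and 618 bp, and rps-16 has no IDR summit in the range drawn.

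The strongest member peaks were at rps-12 and rps-22. At rps-12, the eS12 protein of the head, the peak (chromosome III, 5678982 to 5679274, ce11) had a signal of 1295 and rank 78 of 3838, and its matched peaks ranked 98 in replicate 1 and 69 in replicate 2. At rps-22, the uS8 protein (S15a in mammals), the peak (chromosome III, 1950272 to 1950560) had a signal of 1164 and rank 105, with ranks of 85 in replicate 1 and 121 in replicate 2. Both genes thus stood near the top in each replicate, and their summits were among the 3 nearest to a start, 163 bp upstream of rps-12 and 115 bp upstream of rps-22. At rps-1, the eS1 protein of the platform where the mRNA leaves, the peak (chromosome III, 4475523 to 4475808) had a signal of 956 and rank 164, with ranks of 216 in replicate 1 and 145 in replicate 2. The peak of rps-28, eS28 (chromosome IV, 1659102 to 1659391), had a signal of 714 and rank 252 and lay farther out, 451 bp upstream, with replicate summits at 455 and 451 bp. The 30 bases around these 4 summits are shown because they are where binding peaked at the strongest members whose sequence is printed, with the weakest member, rps-2, for comparison. They are ce11 sequence, 5′ to 3′ on the strand of the gene, with the summit as the 16th base, all between protein-coding genes, and all in lower case because none of the motif words searched below falls within them.
rps-12 (chrIII:5679120-5679149, plus strand): tagcacatttcactgtgccgcgactcaaag
rps-22 (chrIII:1950405-1950434, plus strand): ctccactaagacgatttggctgcttggctg
rps-1 (chrIII:4475639-4475668, plus strand): gtaatacgcattgtggagcgtcatgcggag
rps-28 (chrIV:1659225-1659254, plus strand): gatgctccgtcgtaacgaggcgaaaccgtg
rps-2 (chrIV:7926667-7926696, minus strand): cgcctctcctctaaatcaaaggcgcagtca

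Head and body proteins both had peaks. Assignment to head or body follows the known structures of yeast and mammalian ribosomes. Of 13 head proteins, 11 had an IDR peak (signals 187 to 1295, median rank 430), and of 18 body proteins 17 did (signals 94.2 to 1164, median rank 624). Among head genes, rps-12 was followed by rps-19 (eS19, mutated in human Diamond-Blackfan anaemia, signal 918, rank 172), rps-20 (uS10, signal 746, rank 236) and rps-28. The mRNA entry protein uS3, rps-3, had a signal of 301 and rank 740. The weakest head peak was that of rps-25 (eS25), with signal 187 and rank 1259. Among body genes, rps-22 and rps-1 were followed by rps-0 (uS2, signal 620, rank 308), rps-4 (eS4, signal 566, rank 360), rps-14 (uS11 of the platform, signal 462, rank 451) and rps-23 (uS12 of the decoding centre, signal 457, rank 456). Further down the body list stood rps-30, whose mammalian counterpart is made as a fusion to a ubiquitin-like protein (signal 318, rank 687), and rps-6, eS6, the target of S6 kinase (signal 259, rank 864). The weakest were rps-8 (eS8, signal 163, rank 1453) and rps-2 (uS5, signal 94.2, rank 2525). The peak of rps-2 was the only member peak below rank 1919. The other members with peaks, rps-5, rps-7, rps-9, rps-10, rps-11, rps-13, rps-15, rps-17, rps-18, rps-21, rps-24 and rps-26, had signals between 211 and 525. Ranks ran from 78 to 1259 for head genes and from 105 to 2525 for body genes, with rps-8 and rps-2 of the body below every head gene, and the difference in median rank was not tested.

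Each member without an IDR peak in the window had a different setting. At rps-29, uS14, the nearest IDR summit lay 505 bp upstream, just outside, with a signal of 269 and rank 822, and in replicate 1 it lay at 506 bp. At rps-27, eS27, it lay 618 bp upstream with a signal of 313 and rank 701, and the replicates placed it at 616 and 619 bp. Within 1000 bp these genes joined, so that 30 of 31 members had an IDR summit, against 17.2% of all genes. The gene just inside the window was rps-18, uS13, at 490 bp (signal 373, rank 576). Its matched summits were at 535 bp in replicate 1 and 510 bp in replicate 2, outside the window, and the IDR summit fell in the 5′ UTR of its divergent neighbour sec-61.A, the alpha subunit of the protein translocon, 75 bp into that gene. At rps-16, uS9, no IDR summit lay closer than 1756 bp upstream. That summit belonged to the peak at fib-1, the RNA methyltransferase fibrillarin, 74 bp upstream of the fib-1 start (signal 534, rank 374). fib-1 ends 109 bp before rps-16 on the same strand, an arrangement typical of worm operons. The pooled list had only a weak summit near rps-16, 337 bp upstream with a signal of 16.3 and rank 13615 of 30000, and replicate 2 had one at 250 bp with rank 20244.

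Member counts were alike in the other lists. In the pooled list, which also holds weak peaks and background, 29 of 31 members had a summit within 500 bp, against 37.1% of all genes. In replicate 1 it was 27 of 31, against 32.4% of all genes, and in replicate 2 28 of 31, against 37.6%. The pooled and replicate 2 lists gained the weak summit at rps-16, and both replicates lost rps-18, whose summits lay just beyond the window. The narrower window gave another picture. Within 250 bp only 6 of 31 members had an IDR summit, rps-9 at exactly 250 bp among them, against 9.10% of all genes.

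Member summits lay farther upstream than those of other genes with peaks, a difference that was not tested. Members had a median of 281.5 bp and quartiles of 255 and 337 bp upstream, whereas the 2694 other genes with an IDR peak had a median of 170 bp upstream. Between 200 and 400 bp upstream lay 23 of 28 member summits (82.1%), against 33.3% of the summits of other genes. Downstream of the start lay 0 of 28 member summits, and 91.6% of the other genes had theirs upstream. The nearest member summits were those of rps-22, rps-12 and rps-13 (uS15, 183 bp, signal 371), and the farthest those of rps-18, rps-28 and rps-15 (uS19, 389 bp, signal 525). Head genes had a median of 350 bp and body genes one of 271 bp.

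**Figure D2:**
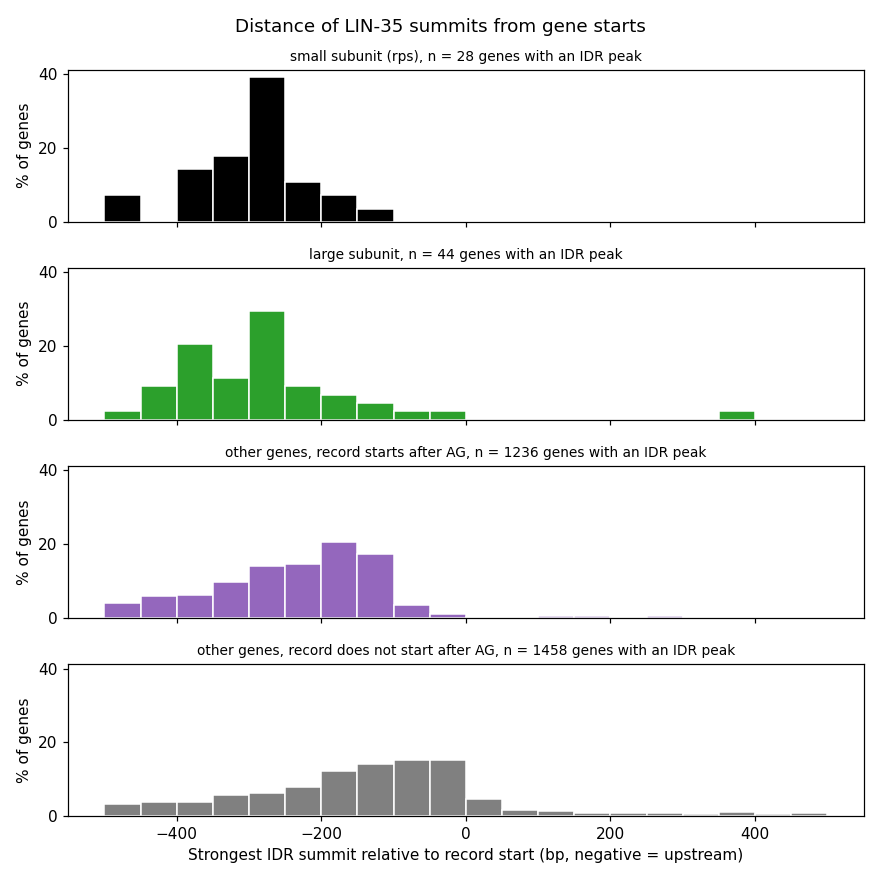
Share of genes (%) by distance of their strongest IDR summit from the start of the gene record (bp in bins of 50, negative is upstream), for 28 rps genes, 44 large subunit genes, and the other genes with an IDR peak split by whether the record starts directly after AG. The bin from 300 to 250 bp upstream holds 39.3% of rps genes and 29.5% of large subunit genes, against 14.2% of other genes that start after AG and 6.31% of those that do not.

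The gene records of nearly all members began directly after AG, the last 2 bases of a splice acceptor sequence. Whether these sequences are used in splicing was not tested. The last 2 bases before the record were AG at 28 of 31 members (90.3%), against 27.6% of all protein-coding genes. The acceptor sequence TTNCAG filled the last 6 bases at 25 (80.6%), against 19.0% of all genes. Neither was particular to members. AG preceded the record at 83.0% of large subunit genes and 92.3% of 13 initiation factor genes, and TTNCAG at 73.6% and 76.9%. For 13 genes that build the small subunit, both shares were 76.9%. Among the 2694 other genes with an IDR peak they were 45.9% for AG and 35.5% for TTNCAG. At the remaining 3 members, rps-22, rps-24 and rps-27, another annotated transcript began after AG, 125, 7 and 13 bp inside the record, so that 31 of 31 members had such a transcript, against 36.4% of all genes. Counted from that transcript, the summit of rps-22 lay at 240 bp rather than 115 bp. The coding sequence of members began at a median of 11 bp into the record, close to the 15 bp over all genes. Genes other than rps whose record began after AG also had their summits farther out, at a median of 220 bp over 1236 genes, against 126.5 bp over 1458 genes whose record did not. The 26 member genes of the first kind with a peak had a median of 284.5 bp. The site where transcription begins is not part of these data, and whether the distance follows from trans-splicing was not tested. The 30 bases directly before the record are shown for members with different settings, 5′ to 3′ on the strand of the gene, with the acceptor sequence or its AG in capitals where present.
rps-12 (chrIII:5679268-5679297, plus strand): tattaacgagtcgaaatttctaatTTTCAG
rps-1 (chrIII:4475888-4475917, plus strand): tactgttaaattatgtattcctatTTTCAG
rps-28 (chrIV:1659661-1659690, plus strand): ttttgtctttataatttcaatttcTTTCAG
rps-2 (chrIV:7926392-7926421, minus strand): caactatctgaatttctcgtaattTTGCAG
rps-0 (chrIII:4754052-4754081, minus strand): ctgatctgaaattaatttttgaattttaAG
rps-16 (chrV:15000542-15000571, minus strand): ttttgttctttgtttaatatattaTTACAG
rps-22 (chrIII:1950505-1950534, plus strand): atttccgtgatttttaggtgattttctcca
The first 4 and rps-16 carry the whole acceptor sequence, rps-0 its last 2 bases, and the record of rps-22 neither. At rps-16, which lacks an IDR peak in the window, the last 6 bases were TTACAG. At rps-12, rps-1 and rps-28, which have strong peaks, they were TTTCAG, which also matches TTNCAG. These variants did not separate members with and without a peak. TTACAG also stood before rps-30 and rps-25, which have IDR peaks (signals 318 and 187). TTTCAG also stood before rps-29, which has no IDR peak in the window.

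Base composition varied with the distance from the start. Averaged over all 31 members, G and C made up 44.0% of bases from 320 to 301 bp upstream, against 34.5% over all protein-coding genes, and from 100 to 81 bp upstream 25.2%, against 33.9%. On the gene strand T made up 48.1% of bases in that nearer bin at members, against 36.7% over all genes, and in the last 20 bases before the start 48.5% against 37.7%. Large subunit genes had the same 48.5% T in those last 20 bases. Their G and C share was 39.0% in the farther bin and 30.8% in the nearer one, where T made up 42.2%. Within 50 bp of the summit the 28 member peaks had a median of 50.5% G and C (36.6 to 58.4), against 46.5% over the 2103 IDR peaks at gene starts. The 44 peaks of large subunit genes were close to members, with a median of 49.5%. In the 20 bp bins from 320 to 241 bp upstream, where the members' average was 41.5 to 44.0% G and C, lay 14 of the 28 member summits. The summits of rps-22, rps-12 and rps-13 lay nearer to the start, where the average was lower in G and C and higher in T, and those of rps-26, rps-15, rps-28 and rps-18 lay more than 360 bp out, where it was close to that of all genes. Their own windows differed from these averages. Within 50 bp of the summit, G and C made up 51.5% at rps-22, 47.5% at rps-12 and 46.5% at rps-13. Among the far ones it was 50.5% at rps-26, 46.5% at rps-15 and 53.5% at rps-28, and only 36.6% at rps-18. ChIP signal can vary with base composition, and its part in these peaks was not tested.

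**Figure D3:**
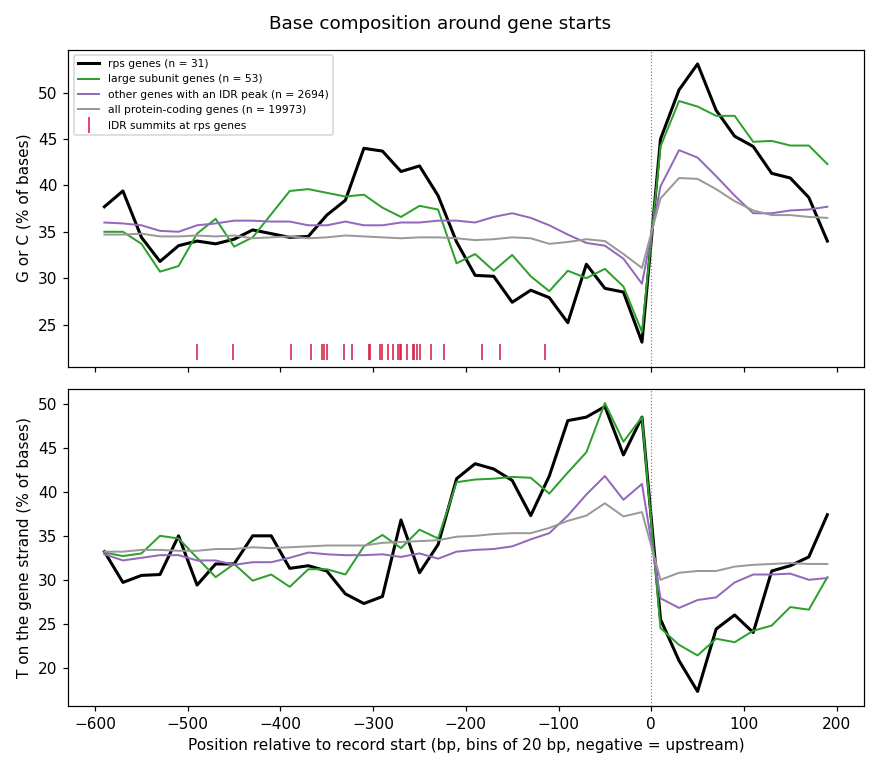
Percent G or C (top) and percent T on the gene strand (bottom) in bins of 20 bp around the start of the gene record (bp, negative is upstream) for rps genes, large subunit genes, other genes with an IDR peak and all protein-coding genes, with red ticks at the 28 member summits. Upstream of the start, the rps curve is highest in G or C at 320 to 301 bp (44.0%), where 2 of the 28 ticks lie. Downstream of the start G or C is higher, with 53.1% in the bin that begins 40 bp into the record. T is highest at 60 to 41 bp upstream (49.7%) and makes up 48.5% of the last 20 bases before the start.

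Few member peaks held an E2F sequence. The E2F words TTCCCGC and TTCGCGC, besides TTGCCGC and also TTGGCGC, searched on both strands within 50 bp of the summit, were found at 1 of 28 member peaks, that of rps-17 (eS17, signal 477), against 16.1% of the 2103 IDR peaks at gene starts. The CHR words TTTGAA and TTCGAA, the element read by LIN-54 in DREAM, were at 4 of 28 (rps-2, rps-18, rps-19 and rps-22), against 30.9%. The word GAGAGA was at 5 (rps-1, rps-2, rps-5, rps-8 and rps-11), against 21.5%, and TTTTTT at 5 (rps-6, rps-8, rps-9, rps-19 and rps-30), against 25.1%. GCGTCTCT was at 3 (rps-0, rps-5 and rps-11), against 7.85%. Within 100 bp, TTTTTT was at 23 of 28 member peaks, against 62.2%, and the E2F words were at 3, against 21.2%. Low E2F counts were not particular to members. Within 50 bp, the 44 peaks of large subunit genes held E2F words at 3 (6.82%) and CHR words at 22.7%. They held GAGAGA at 6.82%, TTTTTT at 9.09% and GCGTCTCT at 0. Within 100 bp they held TTTTTT at 79.5% and E2F words at 11.4%. Words of different motifs can overlap. At rps-5 and rps-11 the GAGAGA match and the GCGTCTCT match share bases, so they are not separate sites. A count of a few among 28 peaks is a description only. The 3 matches to GCGTCTCT are shown with the word, or its reverse complement, in capitals, on the strand of the gene.
rps-0 (chrIII:4754362-4754391, minus strand): aatctacacacGCGTCTCTtccgtgcgaga
rps-5 (chrIV:11111426-11111455, minus strand): cgttggaaacgAGAGACGCagacaaacggg
rps-11 (chrIV:11602254-11602283, plus strand): aaagtccatggAGAGACGCaggttgaaaag

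The replicates placed member summits within a few bases of each other. All 28 member peaks had an overlapping peak in both replicates, and the summits of replicate 1 and replicate 2 differed by a median of 6.5 bp and at most 25 bp. The gap was 10 bp or less at 21 of 28 members (75.0%), against 38.5% of 2652 other genes with a peak in both, whose median gap was 15 bp. Strong peaks had closer summits in general. Among the 959 strongest IDR peaks the median gap was 6 bp over 24 members and 9 bp over 1047 other genes. There 79.2% of members and 55.4% of other genes had a gap of 10 bp or less. Small gaps were not particular to members. The median was 7 bp over 44 large subunit genes (56.8% at 10 bp or less) and 5 bp over 7 genes that build the small subunit (57.1%). It was wider for mitochondrial ribosome genes (16 bp) and initiation factor genes (21 bp). At rps-19 and rps-30 both replicates had the same summit base. The widest gaps were at rps-18 (25 bp), rps-26 and rps-5 (24 bp each).

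Member ranks followed each other between replicates. Over the 28 members, ranks correlated between replicate 1 and replicate 2 with a Spearman rho of 0.869, against 0.877 over 2652 other genes. Both are descriptions across peaks that share their libraries and were selected by IDR. In replicate 1 the members took ranks 85 to 3233, with a median of 523, and in replicate 2 ranks 69 to 2714, with a median of 548. The largest differences were at rps-5, uS7, with ranks 472 in replicate 1 and 1132 in replicate 2, at rps-8, with 1110 and 1657, and at rps-2, with 3233 and 2714. rps-2 was the weakest member in both replicates, and its summits, at 247 and 264 bp, were nearer to the start than the pooled summit at 290 bp. The signal scale differs between lists, so the signals of a gene in 2 lists (rps-12, 366 in replicate 1 and 935 in replicate 2) do not show a difference in binding.

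**Figure D4:**
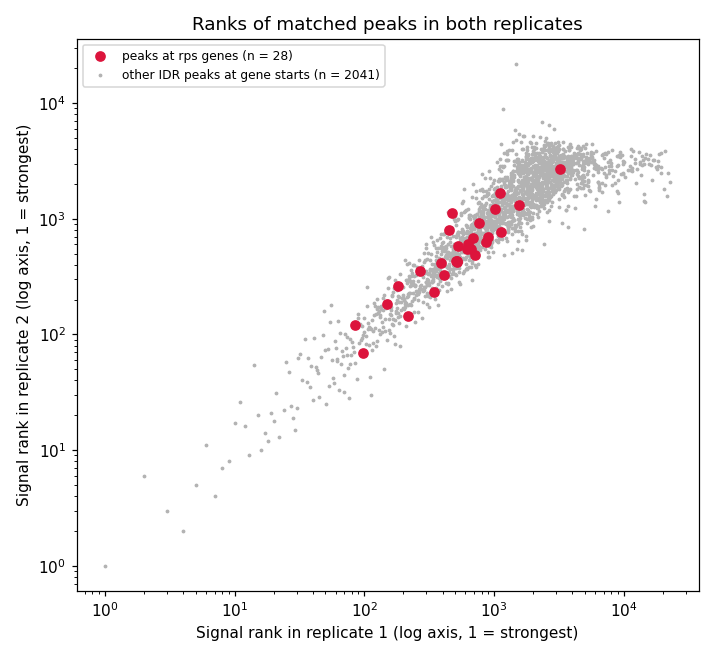
Signal rank of matched peaks in replicate 1 and replicate 2 on log axes (1 is the strongest) for 28 peaks at rps genes in red and 2041 other IDR peaks at gene starts in grey. The red points follow the same diagonal as the grey ones, from ranks below 100 to rps-2 at 3233 and 2714.

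Many member peaks stood in promoters shared with a divergent neighbour. At 16 of 28 members (57.1%) another protein-coding start lay within 500 bp of the summit, against 44.9% of other genes with a peak. A share of this size was not particular to members. With a peak, it was 56.8% for large subunit genes and 62.9% for mitochondrial ribosome genes. It was lower for genes that build the small subunit and for initiation factor genes (44.4%). Among the 959 strongest IDR peaks the share was 66.7% for members and 52.7% for other genes. These differences were not tested. All 16 neighbours of members were on the opposite strand. The neighbour's start was nearer to the summit than the member's at 11 of the 16. Those were rpl-24.1 and rpl-39 (large subunit proteins) beside rps-10 and rps-30, hsr-9 (related to 53BP1) beside rps-19, usp-3 (a deubiquitinase) beside rps-6, ekl-4 (a DMAP1 homolog) beside rps-20, tmem-107 beside rps-26, rbg-3 beside rps-0, ska-3 (a spindle and kinetochore protein) beside rps-12, sna-3 beside rps-3, dpm-3 (dolichol phosphate mannose synthesis) beside rps-23 and sec-61.A beside rps-18. The gap was small in some pairs. The summit between rps-23 and dpm-3 lay 271 bp from rps-23 and 263 bp from dpm-3, while that between rps-0 and rbg-3 lay 305 bp from rps-0 and 68 bp from rbg-3. The member was nearer at F36A2.9 (rps-15), lsm-1 (mRNA decay, rps-9), polh-1 (translesion DNA polymerase eta, rps-22), nfx-1 (rps-13) and rpl-36 (rps-14). A peak between divergent genes cannot be assigned to either of them from its position.

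The median peak was weaker where no other start shared it. The 12 members alone at their peak had signals of 94.2 to 956 and a median rank of 765, and the 16 with a neighbour had signals of 259 to 1295 and a median rank of 480. Other genes had the same order, with medians of 1618.5 over 1484 genes alone and 1072 over 1210 with a neighbour. The members' ranges overlapped widely, and the difference was not tested. The distance was alike, at a median of 287 bp for the 12 alone and 275 bp for the 16. If each peak went to its nearest start alone, 17 members kept one. No share of all genes is given under that rule, so the loss cannot be compared with theirs. Upstream neighbours of 22 of 31 members (71.0%) pointed away from the member, against 69.8% of other genes with an IDR peak and 45.4% of all protein-coding genes.

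By chromosome, members made up different shares of the protein-coding genes, which were not tested. Chromosome IV held 10 members among its 3281 genes, all 10 with an IDR peak, chromosome I held 8 among 2878, all 8 with a peak, and chromosome III held 9 among 2640, of which 8 had one. Chromosome II held 1 among 3449 (rps-9, with a peak), chromosome V held 3 among 4994, and the X chromosome held 0 among 2731. On chromosome V, rps-30 had a peak and rps-16 and rps-27 did not. The peaks of rps-19 (9625934 to 9626223) and rps-20 (14469208 to 14469470), the strongest on chromosome I, had summits 293 and 224 bp upstream.

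Other genes of the ribosome and of its loading differed in how often and where they had peaks. Of 53 large subunit genes, 44 had an IDR peak within 500 bp, with a median distance of 288 bp and a median rank of 599.5, against 281.5 bp and 574.5 for members. The strongest were rpl-3 (signal 3457, rank 1), rpl-35 (rank 10) and rpl-24.2 (rank 42), all stronger than the strongest member. Of 70 genes of the mitochondrial ribosome, which makes proteins inside the organelle, 35 had a peak, with a median of 162 bp and a median rank of 1552, mrps-16 being strongest (signal 1141). Their records began after AG at 54 of 70. The small subunit proteins with other names both had a peak, ubl-1, a ubiquitin fusion (eS31 in yeast and mammals, 193 bp upstream, rank 484), and rack-1 (220 bp upstream, rank 1325). Of 13 initiation factor genes that act on the small subunit, 9 had a peak, at a median of 256 bp, eif-3.C (signal 2003, rank 16) and eif-3.B (rank 80) leading. Of 13 genes for building the small subunit, 8 had one, at a median of 240 bp and a median rank of 479, led by nol-58 (rank 69), fib-1 and utp-20 (rank 375). None of these differences was tested, since genes are not replicates and the samples form 1 group.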

How the data were processed

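ChIP-seq peaks of LIN-35 from 2 biological replicates (numbers from the labels) formed 1 group, so no test between groups was made. Fragments were 150 to 350 bp per the labels. The 4 ce11 peak lists were used. Per the deposited file manifest, the authors derived each replicate list from 1 alignment plus a control alignment and the pooled list from both replicates, and filtered these 3 into the IDR list. Which aligner, caller and IDR cutoff they used was not given in the sources used here. Signal, 1 value a peak, is deposited by the authors, and served to rank peaks inside a list only, and all 3838 IDR peaks are the strongest pooled ones. The deposited −log10 q-values were tied in the IDR list and were not used. The ce10 lists were not used here. Depth is unknown, so no interval was given.

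A gene had a peak where a summit (the start plus the summit offset) was at most 500 bp from the start of its record in Ensembl release 115 (WBcel235, the assembly of ce11), and the strongest counted. Replicate peaks were matched by an overlap of at least 1 bp. Sequence came from the RefSeq WBcel235 genome. Sequences are printed for some members on chromosomes III, IV and V. Members and lists were chosen with earlier results of these data known. Lists were taken by name (rpl-, mrps- and mrpl-, eif-3.) or symbol, and all rps genes could be named, with most values for the strongest, weakest, nearest, farthest and least alike between replicates. Gene assignment was checked on simulated data. Python 3.11.15 with pandas 2.3.3 was used.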

Additional observations from a re-analysis of the deposited data

How the results depend on the processing

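Of 50 recomputed values, 31 stayed within the limits set (1.5 times for counts, 1 SD between replicates for medians), 19 moved and none changed direction. That SD, 3.54 bp for distance and 21.2 for rank, came from the medians with 1 replicate left out, which were then held to it. Upstream counts that moved did so because fewer members were counted, so the tally partly reflects how the alternatives were built. Within 250 bp, 6 members had an IDR summit, all 6 upstream, at a median of -203.5 bp and a median rank of 333. When a peak could count for 1 start alone, the nearest, 17 had one, all 17 upstream, at -273 bp and rank 624. No share of all genes is given for this rule. Members whose peak no other start shared, an alternative chosen after seeing the data, were 12, all 12 upstream, at -287 bp and rank 765. Within 1000 bp the median was -287 bp, and from the first start codon -298 bp. Leaving out 1 replicate gave 27 to 27 members (27 to 27 upstream), medians of -280 to -275 bp and ranks of 519 to 549, and E2F words at 1 to 2 members, against 1 with both. Within 100 bp of the summit E2F words were at 3. The cause of these shifts was not tested beyond the construction of each alternative. No depth is given in these lists, so a member without a peak cannot be called unbound.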

Other observations

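Some member summits lay near the starts of non-coding RNA genes. Those of rps-10, rps-12 and rps-26 lay within 500 bp of the start of a small nucleolar RNA gene, at -394, -243 and -151 bp from D1007.20, F54E7.10 and F39B2.14, where a negative distance is upstream of the RNA gene. These were 3 of 28 member peaks (10.7%), against 1.38% of the 2103 IDR peaks at gene starts and 2.61% of all IDR peaks. The summits of rps-0, rps-1 and rps-6 lay within 10 bp of the annotated start of an unclassified non-coding RNA, at -4 bp from B0393.12, 3 bp from F56F3.11 and -6 bp from Y71A12B.30. That was 3 of 28, against 0.761% of the IDR peaks at gene starts. The limit of 10 bp was chosen after these distances were seen, each count rests on 3 peaks, and no difference was tested.

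The pooled list held a second, weak summit downstream of the start of 5 of the 28 members with an IDR peak (17.9%), against 10.3% of the 2694 other genes with one. At rps-6 the signals were 22.5 at 257 bp and 18.2 at 467 bp into the gene, against 259 upstream. At rps-25, rps-28, rps-3 and rps-30 the second summits had signals of 14.2, 10.8, 12.7 and 12.3, against a median of 15.2 over the pooled list.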
